A study of Mus musculus with 39 samples.

Results

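The Afos-retained stable sites of the glucocorticoid receptor (GR) without the estrogen receptor (ER) were 3339 of the 12084 GR sites called in 7438 mouse mammary cells given dexamethasone. They are called Afos-retained sites here. A site was taken if it was also called for GR with both hormones in 7438, overlapped no ER site of 7438 with estradiol or with both hormones, and overlapped a GR site in at least 1 of the 2 replicate lists of dexamethasone-treated 7438 cells carrying Afos. Overlap meant at least 1 bp. The 1409 sites that met the same conditions but overlapped neither Afos list are called Afos-absent sites.

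GR and ER are nuclear receptors that bind DNA once a steroid ligand has entered the cell. GR recognises a palindromic element on its own, and at many of its sites it works beside other factors that hold chromatin open. AP-1, made of Jun and Fos family proteins, is one such factor in mouse mammary cells, and the A-Fos protein, a dominant-negative form of Fos, prevents AP-1 from binding DNA. The Afos-retained sites are thus GR sites still called in cells that carry Afos.

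All cells used here expressed GFP-GR and Cherry-ER, fluorescent fusions of the receptors, from a tet-regulated promoter. The cells called 7438 Afos expressed Afos in addition, also from a tet-regulated promoter, and the labels give no measure of Afos or of AP-1 binding. Receptor expression was induced by removing tetracycline. Cells of both lines were untreated, or received 100 nM dexamethasone (Dex, a GR ligand), 100 nM estradiol (E2, the ER ligand) or both (Dex+E2) for 30 min before ChIP-seq for GR or ER. Of 39 samples, 24 gave a list of called sites. Of these lists, 16 came from 7438 Afos, 2 replicates for each receptor and treatment, and 8 came from 7438, 1 for each. Nothing in the labels says that replicates were separate cultures, so p-values measure only the spread between lists.

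Some lists stood apart or went against their labels. The 7438 lists named Dex+E2 are filed under samples labelled untreated and the reverse, for both receptors; here the list names were followed. The ER lists of 7438 Afos with Dex held 61 and 41 sites, against 10149 in the 7438 ER list for Dex. Replicate 2 lists of 7438 Afos were shorter than replicate 1 lists where the receptor had its ligand: 5136 against 8873 sites for GR with Dex and 2564 against 5905 for ER with Dex+E2. No read totals came with the lists, so sequencing depth is unknown. Intervals below are exact (Clopper-Pearson) 95% binomial intervals and cover counting error only; sites are not replicates.

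The members were reached in steps. Of the 12084 GR Dex sites, 7699 (63.7%) were also in the GR list named Dex+E2. Of these 7699, 1130 overlapped an ER site in the list named E2 (9.85% of all GR Dex sites did), 2881 overlapped one in the list named Dex+E2 (24.9% of all did), and 4748 overlapped neither. The Afos-retained sites were 3339 of these 4748 (70.3%, interval 69.0 to 71.6%). Among the 2951 stable GR sites with ER, 2110 (71.5%) were in an Afos GR Dex list. The groups with and without ER differed in strength. The strongest of 5 strength classes, defined below, held 1242 of the 2951 sites with ER and 1155 of the 4748 without. GR Dex sites missing from the list named Dex+E2 were in an Afos list at 1858 of 4385 (42.4%). The members were chosen by the calls in these 7438 and Afos GR Dex lists, so the shares are descriptive. Of all GR Dex sites, 59.8% were in Afos GR Dex replicate 1 and 40.3% in replicate 2. Replicate 1 held 3298 (98.8%) of the members and replicate 2 held 2430 (72.8%). Most members, 2389, were thus in both lists, 909 were in replicate 1 alone and 41 in replicate 2 alone.

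Among the stable GR sites without ER, the retained sites were the stronger ones in 7438. Strength is the highest tag density within a site, in the authors' scale, and its percentile rank in its own list (100 is the strongest). In the 7438 GR Dex list the median density was 34.8 at Afos-retained sites (middle 50% of sites 24.99 to 52.2, range 10.1 to 370.0), 18.9 at Afos-absent sites and 20.9 over all sites. The median ranks were 72.7 at Afos-retained and 44.2 at Afos-absent sites. In the GR list named Dex+E2 the median ranks were 53.8 at Afos-retained and 23.6 at Afos-absent sites. The densities of both classes overlapped: the weakest Afos-retained site had a density of 10.1 and the strongest Afos-absent site one of 94.2.

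**Figure D1:**
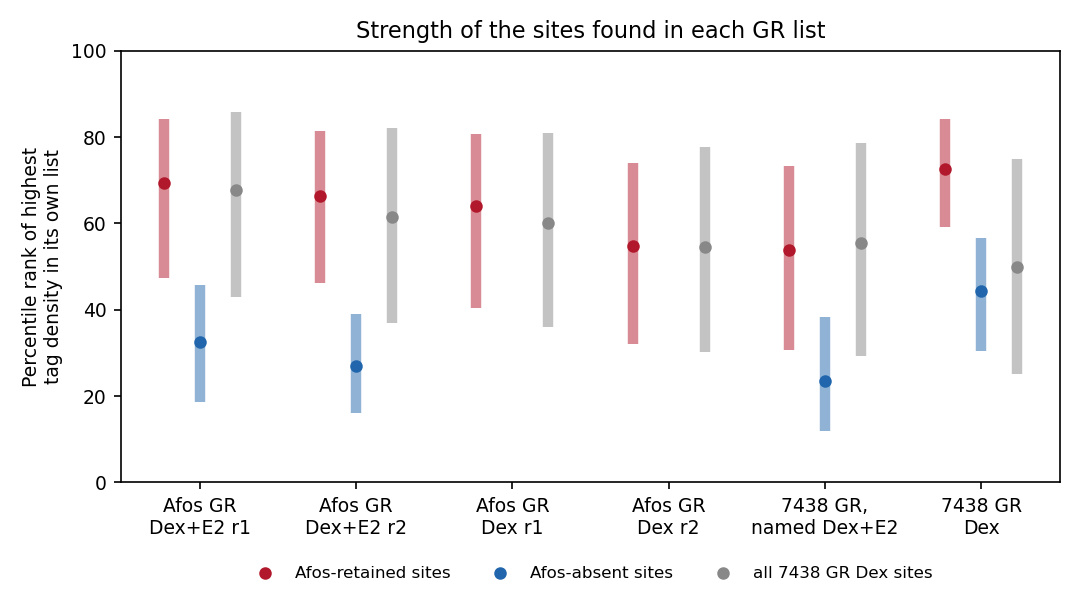
Percentile rank of the highest tag density (vertical axis) of the sites found in each of 6 GR lists; points are medians over sites and bars span the middle 50% of sites, r1 and r2 are replicates. Afos-retained sites had medians from 53.8 to 72.7, and Afos-absent sites lay lower in each of the 4 lists that hold them.

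When the 12084 GR Dex sites were divided into 5 equal classes by density, the retained share of the stable sites without ER went up from class to class. It was 23.8% (54 of 227) in the weakest class, 31.4% (194 of 618) in the second, 53.4% (629 of 1178) in the third, 84.4% (1325 of 1570) in the fourth and 98.4% (1137 of 1155) in the strongest. Stable sites with ER gave 16.3%, 29.5%, 48.4%, 76.7% and 98.3% in the same classes, each below the share without ER. The intervals of the groups with and without ER overlapped in every class except the fourth. There they were 73.3 to 79.8% with ER and 82.5 to 86.2% without. The difference was not tested. High strength was not particular to the members. The strongest class held 1137 of the 3339 members and 1221 of the 2110 stable sites with ER in an Afos GR Dex list. Only 18 sites of the strongest class were Afos-absent. Site strength and detection by the caller cannot be told apart in lists of called sites.

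**Figure D2:**
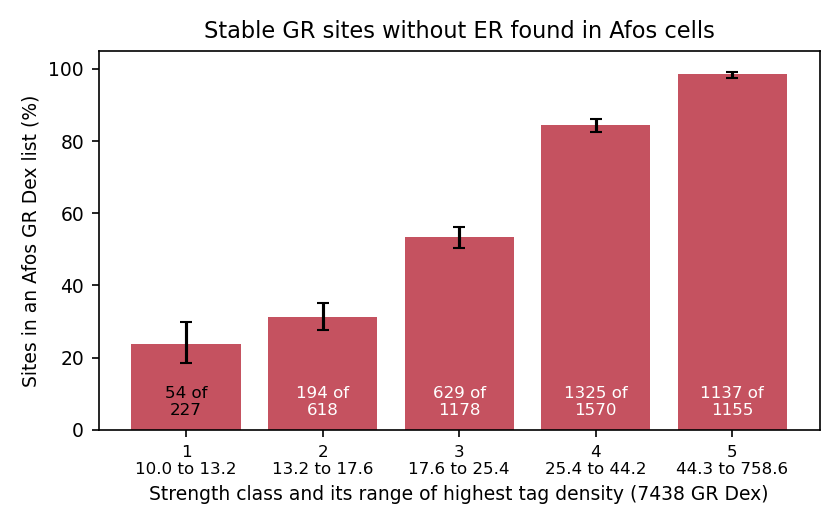
Share of stable GR sites without ER that were in an Afos GR Dex list (vertical axis, percent), by class of highest tag density in 7438 with Dex (horizontal axis, weakest to strongest); error bars are exact 95% binomial intervals and the counts stand in the bars. The share was 23.8% in the weakest class and 98.4% in the strongest.

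Strength also ordered the members by how many Afos lists held them. The 2389 members in both Afos GR Dex lists had a median 7438 Dex density of 41.4, against 25.2 for the 909 in replicate 1 alone and 26.6 for the 41 in replicate 2 alone. Across members, the density in 7438 with Dex had a Spearman correlation of 0.870 with that in the list named Dex+E2 (n = 3339 sites). With the Afos GR Dex lists it was 0.654 in replicate 1 (n = 3298) and 0.645 in replicate 2 (n = 2430). With the Afos Dex+E2 lists it was 0.475 (n = 2935) and 0.655 (n = 3107). The replicate Afos Dex lists correlated at 0.860 (n = 2389). The order of strength among members was thus less alike between the cell lines than within either; the lists of the cell lines were also called with different site widths.

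The strongest members were high in every GR list with Dex or Dex+E2. Coordinates are in mouse build mm9 as the lists give them, which do not state whether the first base counts as 0 or 1. The site chr2:167686161-167686311 ranked highest over the 4 lists of the rule. Its density was 159.6 and 167.0 in the 2 Afos Dex+E2 lists, 206.7 and 118.5 in the 2 Afos Dex lists, 233.8 in the 7438 list named Dex+E2 and 340.5 in 7438 with Dex. In each of these lists it stood above the 98th percentile. The site chr5:118874746-118874896 had 142.9 and 131.8 in Afos Dex+E2, 167.3 and 101.7 in Afos Dex, 204.4 in the 7438 list named Dex+E2 and 370.0 in 7438 with Dex, the highest 7438 Dex density among the members. Neither of these sites was in an ER list of 7438 Afos with E2 or Dex+E2.

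Members differed in which cell line ranked them higher. The site chr17:28653004-28653154 had densities of 212.5 and 206.6 in Afos Dex+E2, 263.1 and 148.6 in Afos Dex, 109.1 in the 7438 list named Dex+E2 and 159.1 in 7438 with Dex. Its rank was 99.7 and 99.4 in the Afos Dex lists and 97.0 in 7438 with Dex. It lay 343 bp from the nearest ER site of 7438, with no ER call in 7438 Afos. In the other direction, chr11:68910508-68910658 ranked 97.9 and 96.6 in the Afos Dex lists and 99.0 in 7438 with Dex, with densities there of 123.2, 77.6 and 278.2. These ranks are set side by side without a test, since 7438 had 1 list.

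Some strong 7438 sites passed the rule through 1 Afos list. The strongest was chr6:145710653-145710803, with a density of 28.3 in Afos Dex replicate 1, no call in replicate 2, and 88.4 in 7438 with Dex. With Dex+E2 in 7438 Afos it was called in replicate 2 at 18.6 and was not called in replicate 1. The next, chr2:167579499-167579649, had the same pattern, at 36.1 in Afos Dex replicate 1, 25.2 in Afos Dex+E2 replicate 2 and 78.8 in 7438 with Dex. At the other limit of the rule, the strongest Afos-absent sites were chr11:3053824-3053974 at 94.2, chr3:60435238-60435388 at 67.6 and chr6:115265945-115266095 at 58.5 in 7438 with Dex, and none of these 3 was in an Afos GR Dex+E2 list. The weakest members, at chr9:34793967-34794117, chr6:3159832-3159982 and chr1:173239553-173239703, had 7438 Dex densities between 10.1 and 10.2, beside a lowest density of 10.0 in the whole list.

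GR was called again at most Afos-retained sites when 7438 Afos cells received both hormones, in lists the rule did not use. Both classes were set by GR calls in 7438 Afos cells with Dex. A difference between them in Afos GR lists with Dex+E2 therefore follows in part from that choice and gives no separate support. Replicate 1 held 2935 of 3339 Afos-retained sites (87.9%), 173 of 1409 Afos-absent sites (12.3%) and 60.5% of all GR Dex sites. Replicate 2 held 3107 (93.1%, interval 92.1 to 93.9%), 308 (21.9%) and 62.2%. The share averaged 90.5 ± 3.64% at Afos-retained sites and 17.1 ± 6.77% at Afos-absent sites (SD, n = 2 lists each). The difference was 75.6 percentage points in replicate 1 and 71.2 in replicate 2, with a mean of 73.4. A two-sided exact permutation test within lists gave p = 0.5, the smallest value that 2 lists allow, so no threshold of 0.05 can be reached.

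This difference was also present among sites of like strength in 7438. In the weakest class, Afos GR Dex+E2 replicate 1 held 77.8% of Afos-retained, 10.4% of Afos-absent and 33.6% of all GR Dex sites. Replicate 2 held 81.5%, 11.0% and 29.0%. In the middle class replicate 1 held 76.9%, 10.6% and 55.0% in the same order, and replicate 2 held 85.7%, 23.9% and 60.0%. In the strongest class replicate 1 held 96.8% of Afos-retained sites, 5 of 18 Afos-absent sites and 96.8% of all GR Dex sites. Replicate 2 held 99.3%, 6 of 18 and 98.5%, so Afos-retained sites lay near all sites in this class. The sites called in Afos with Dex+E2 were also stronger there if they were Afos-retained: their median ranks were 69.4 and 66.2, against 32.6 and 26.9 at Afos-absent sites. The mean difference was 38.1 rank points (exact permutation test within lists, two-sided, p = 0.5, the smallest possible). In the middle class of strength it was 20.8 points. In the strongest class the median ranks were 82.0 and 83.0 at Afos-retained sites, against 38.8 and 49.3 at Afos-absent sites. The latter rest on the 5 and 6 sites found. The rank difference was thus smaller in the middle class of 7438 strength but not in every class.

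Over both Dex+E2 lists, 2841 members (85.1%) were called in both lists and 3201 (95.9%) in at least 1. Of all 12084 GR Dex sites, 6577 were called in both. Of the 1409 Afos-absent sites, 101 (7.17%) were in both and 380 (27.0%) in at least 1. The 138 members in neither list (4.13%) had a median 7438 Dex density of 23.6, below the 34.8 of all members. Members in all 4 Afos GR lists with Dex or Dex+E2 were 2300 (68.9%), with a median density of 41.9. Members in both Afos Dex lists were found in the Dex+E2 lists at 97.0% and 98.9%. Those in Afos Dex replicate 1 alone were found at 66.2% and 78.2%, and those in replicate 2 alone at 39.0% (16 of 41) and 80.5%.

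GR was called at few members without Dex. With E2 as the sole hormone, the 7438 Afos GR lists held 4 members (0.120%) in replicate 1 and 1 (0.0299%) in replicate 2, beside 0.513% and 0.215% of all GR Dex sites. The share averaged 90.5 ± 3.64% with Dex+E2 and 0.0749 ± 0.0635% with E2 (SD, n = 2 lists each), a difference of 90.4 percentage points (exact permutation test over lists, two-sided, p = 0.33, the smallest possible for 2 against 2). The E2 lists held 490 and 146 sites in all, too few for most members, against 14160 and 10309 with Dex+E2. The members were also chosen by GR calls with Dex. Of all GR Dex sites, the Dex+E2 lists held 60.5% and 62.2%. Untreated 7438 Afos lists held 19 (0.569%) and 64 (1.92%) members, beside 0.604% and 1.8% of all GR Dex sites. These shares lay near those of all sites.

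A small group of members carried GR calls without added hormone in both cell lines, which was not particular to the members. Their shares in the untreated GR lists lay near or below those of all GR Dex sites. Overlaps between untreated lists were counted for members only. Of the 70 members in at least 1 untreated Afos list, 13 were in both. The 7438 GR list named untreated held 23 members (0.689%, beside 1.12% of all GR Dex sites), and 20 of these 23 were in an untreated Afos list as well. The 7438 GR list named E2 held 11 members (0.329%, beside 1.37%).

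**Figure D3:**
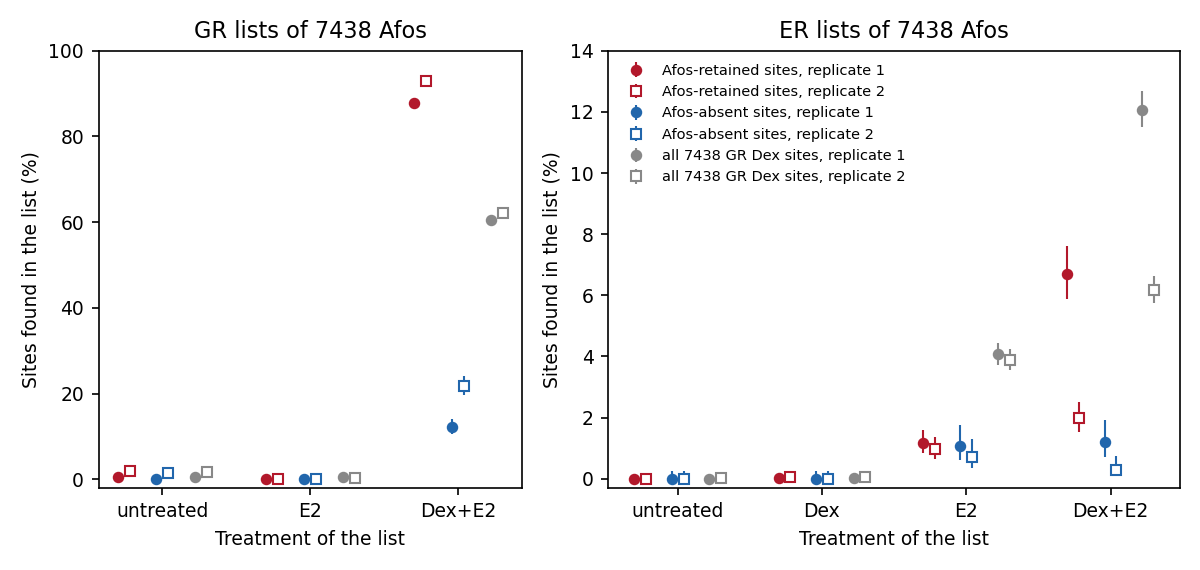
Share of sites found in each list of 7438 Afos (vertical axes, percent; the scales differ) for GR (left) and ER (right) by treatment; filled circles are replicate 1, open squares are replicate 2 and bars are exact 95% binomial intervals. GR with Dex+E2 was called at 87.9% and 93.1% of Afos-retained sites, and ER with Dex+E2 at 6.71% and 1.98%.

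ER was called at few Afos-retained sites in 7438 Afos, and at more of them with Dex+E2 than with E2. The rule had removed every site with an ER call in 7438 with E2 or Dex+E2. Shares below those of all GR Dex sites therefore follow in part from the choice. With Dex+E2, replicate 1 held 224 members (6.71%, interval 5.88 to 7.61%) and replicate 2 held 66 (1.98%, 1.53 to 2.51%), beside 12.1% and 6.18% of all GR Dex sites. With E2, replicate 1 held 39 (1.17%) and replicate 2 held 32 (0.958%), beside 4.06% and 3.9%. The share averaged 4.34 ± 3.35% with Dex+E2 and 1.06 ± 0.148% with E2 (SD, n = 2 lists each). Both Dex+E2 lists lay above both E2 lists, and the difference of 3.28 percentage points was of the size of the spread between the Dex+E2 replicates (exact permutation test over lists, two-sided, p = 0.33, the smallest possible). The size of the difference rested on the replicates and on list length. It was 1.56 points without replicate 1 and 5.61 without replicate 2. When all lists compared were shortened to equal length it was 1.18. The shares were then 2.07% and 1.98% with Dex+E2, and 0.869% and 0.809% with E2.

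At Afos-absent sites the same ER Dex+E2 lists held 17 of 1409 (1.21%) and 4 (0.284%). The share averaged 4.34 ± 3.35% at Afos-retained and 0.745 ± 0.652% at Afos-absent sites (SD, n = 2 lists each), and the difference was 5.50 points in replicate 1 and 1.69 in replicate 2 (exact permutation test within lists, two-sided, p = 0.5, the smallest possible). The mean difference of 3.60 points was 1.67 at equal list lengths, 1.87 without replicate 1 and 5.62 without replicate 2. In the middle class of 7438 strength it was 3.58. With E2 the Afos-absent sites had ER in 15 (1.06%) and 10 (0.710%) cases, near the 1.17% and 0.958% of Afos-retained sites.

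Without E2, ER was all but missing from the members in 7438 Afos. Untreated ER lists held 0 of 3339 members in both replicates, with an upper interval end of 0.110%, beside 0% and 0.00828% of all GR Dex sites. The mean with E2 was 1.06 points above this (exact permutation test over lists, two-sided, p = 0.33, the smallest possible). With Dex the ER lists held 1 and 2 members, beside 0.0248% and 0.0414% of all GR Dex sites. In 7438 the ER Dex list held 58 members (1.74%, interval 1.32 to 2.24%) and 22 Afos-absent sites (1.56%), beside 1.94% of all GR Dex sites, and the list named untreated held 21 members (0.629%, beside 1.85%). The rule did not use either list.

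The ER calls in 7438 Afos fell into 2 ranges of distance from the ER sites of 7438. The gap from a member to the nearest 7438 ER site with E2 or Dex+E2 had a median of 25251 bp, and 324 members (9.70%) lay within 1000 bp; for Afos-absent sites the median was 16285 bp, with 143 (10.1%) within 1000 bp. Members with a gap of at most 150 bp, 89 in number, had ER in 47.2% and 29.2% of cases with Dex+E2, and in 25.8% and 22.5% with E2. At 151 to 1000 bp (235 members) the shares were 18.3% and 8.51% with Dex+E2, and 6.38% and 5.11% with E2. The 30 Afos-absent sites within 150 bp had ER in 16.7% and 6.67% with Dex+E2, and in 30% and 16.7% with E2. For the 113 at 151 to 1000 bp these shares were 3.54% and 1.77%, and 5.31% and 4.42%. Near the 7438 ER sites, the classes thus differed less with E2 than with Dex+E2. Shares by distance were not computed for all GR Dex sites. The Afos sites are wider than those of 7438, with list medians of 567 and 523 bp for ER with Dex+E2, and the part of width in these calls was not tested.

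Beyond 1000 bp the treatments differed. Of the 3015 members farther away, 139 (4.61%) and 20 (0.663%) had ER with Dex+E2, against 1 (0.0332%) and 0 with E2. The interval for the count of 0 ended at 0.122%. With Dex+E2 the share showed no common trend over the farther distances in both replicates: it was 3.79% and 0.855% at 1001 to 10000 bp, 4.45% and 0.404% at 10001 to 100000 bp, and 5.90% and 0.983% beyond. The mean difference between Dex+E2 and E2 over these 3015 members was 2.62 points, beside 3.28 over all members. Of the 1266 Afos-absent sites that far away, 0.632% and 0% had ER with Dex+E2 in replicates 1 and 2.

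**Figure D4:**
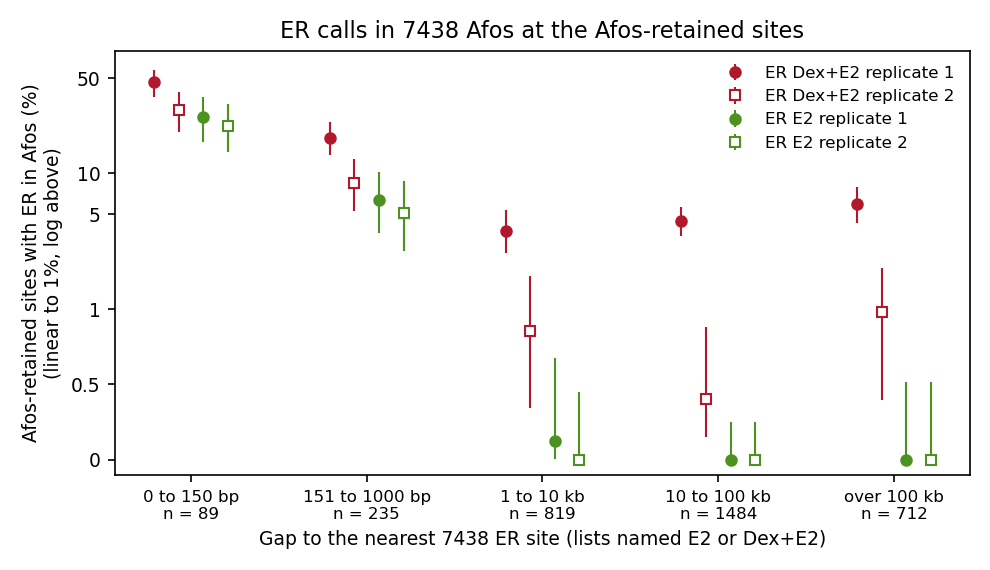
Share of Afos-retained sites with an ER call in 7438 Afos (vertical axis, percent, linear to 1 and logarithmic above) by the gap to the nearest ER site of 7438 (horizontal axis); red is Dex+E2, green is E2, circles are replicate 1, squares are replicate 2, and bars are exact 95% binomial intervals. Beyond 1000 bp, ER with E2 was called at 1 and 0 of 3015 sites and ER with Dex+E2 at 139 and 20.

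The distant ER calls were weak ER sites at strong GR sites of 7438 Afos. The 139 distant members with ER in Dex+E2 replicate 1 had a median ER rank of 24.03 in that list, against 67.0 for the 85 members with ER there within 1000 bp. All 139 were called for GR in both Afos Dex+E2 lists, with median GR ranks of 91.1 and 84.4. The 2870 distant members without ER in either Dex+E2 list had GR ranks of 67.0 and 64.1. In 7438 with Dex both kinds were alike in strength, with median ranks of 71.5 and 72.4. These groups of sites were formed from the ER calls, so the values describe them and were not tested, and the part that strong GR signal or the length of the ER lists had in the calls was not tested. Over all distances, ER at the members had median ranks of 31.7 and 45.4 in the Dex+E2 lists, beside 61.0 and 60.1 for all GR Dex sites with ER there, and of 83.2 and 80.2 in the E2 lists.

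Members with ER in both Afos Dex+E2 lists were 58 (1.74%), those in replicate 1 alone 166, and those in replicate 2 alone 8. Afos-absent sites with ER in both lists were 4 of 1409 (0.284%). Of the 58, 44 (75.9%) lay within 1000 bp of a 7438 ER site, compared with 237 (7.63%) of the 3107 members in neither list. The strongest by GR was chr15:88681007-88681157, with ER densities of 22.7 and 11.96 and GR densities of 158.3 and 128.6 in Afos Dex+E2, at 4849 bp from a 7438 ER site. The site chr2:154215780-154215930 directly adjoined a 7438 ER site, with a gap of 0 bp, and had higher ER densities, 37.4 and 20.1. The site chr1:34428984-34429134 lay 207266 bp from the nearest 7438 ER site and had ER densities of 15.1 and 7.35, at ER ranks of 51.5 and 14.5. None of these 3 was in an Afos ER E2 list. Most members, 3099 (92.8%), were in no ER list of 7438 Afos. Shares over several ER lists were not computed for all GR Dex sites. The single ER Dex+E2 lists held 12.1% and 6.18% of all GR Dex sites.

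The distances between site centres are a description, because the rule requires these sites to overlap. The centre of the Dex site lay a median of 8 bp from the centre of the site in the 7438 list named Dex+E2 at Afos-retained sites, 12 bp at Afos-absent sites and 9 bp at all GR Dex sites found there. The shares within 20 bp were 85.6%, 72.0% and 80.7% in the same order, so the members lay near all sites. The distance to the centre of the Afos Dex site had a median of 22.25 bp in replicate 1 and 22.5 bp in replicate 2, with 46.8% and 46.7% of members within 20 bp, beside 24 bp in both replicates with 44.1% and 44.2% for all GR Dex sites found there. Afos Dex sites had median widths of 598 and 570 bp, against 150 bp in 7438. Afos Dex+E2 sites at members had median widths of 672 and 656 bp, against 484 and 448.5 bp at Afos-absent sites. The part of site width in the overlaps was not tested. In Afos Dex, 65 sites in replicate 1 and 47 in replicate 2 covered 2 members each, so members were not all separate sites there.

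The nearest other site of the same class lay at a median of 74310 bp for Afos-retained sites, 182052 bp for Afos-absent sites and 12521 bp for all GR Dex sites. Another of the same class lay within 10000 bp for 646 Afos-retained sites (19.3%), 12.3% of Afos-absent sites and 46.3% of all GR Dex sites. These distances depend on the number of sites in a class, which differed. The retained share of stable GR sites without ER was 57 of 66 (86.4%, interval 75.7 to 93.6%) on chromosome X and 166 of 266 (62.4%) on chromosome 15, the highest and lowest of the chromosomes. Genes, sequence motifs and sequences at the members were not analysed here, since no genome of build mm9 was used.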

How the data were processed

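Per the labels, ChIP-seq used antibody cocktails against GR or ER on sonicated nuclei. Build mm9 and CASAVA 1.8 come from the submitters' processing notes; no aligner, caller, control or threshold is given in the sources used here. Per the file headers, each deposited site has a highest and average tag density (a signal value whose scaling is not stated) and a z-score, the authors' score. P-values deposited with the Afos lists entered no result. Sites were 150 bp wide in 7438, with densities of at least 10.0 and z-scores from 15.0; the narrowest Afos site had 251 bp, and Afos z-scores ran from 10.2. Calls therefore do not mean the same in both cell lines, and densities were ranked within lists.

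From these lists, overlaps, shares with exact 95% intervals and exact permutation tests over lists were computed with Python 3.11.15, NumPy 2.4.6, SciPy 1.17.1, pandas 2.3.3 and matplotlib 3.10.9. The overlap code was checked on simulated sites. The members, classes and alternatives were chosen with earlier results of these data known. Named sites are the 10 members of highest mean rank over the 4 GR lists of the rule, 5 strong ones in 1 Afos list, 5 with ER in both Afos Dex+E2 lists, and 3 at each limit of the rule; the text gives the leading ones. The other 15 samples, among them second 7438 replicates, were not analysed here. Same-numbered Afos lists were not treated as paired, because nothing in the labels ties the numbers.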

Additional observations from a re-analysis of the deposited data

How the results depend on the processing

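Of 73 values recomputed under alternative choices, 68 kept their direction, or for counts and untested shares stayed near the main value. Several of the 68 changed in size. The side of the 0.05 threshold could not change, since the exact permutation tests allow no p below 0.33. With no 7438 ER site within 1000 bp, the ER difference between E2 and untreated was 0.0166 points, against 1.06. The ER difference between Dex+E2 and E2 was 1.18 at equal list lengths, against 3.28. The reading of the 7438 lists by label in place of name changed most: it left 27 members, an ER Dex share of 3.70%, a rank difference of 16.8 in place of 38.1 and a difference of ER between E2 and untreated of 0, where the GR list labelled Dex+E2 has 143 sites. The ER Dex share was 1.21% with at least 75 bp overlapped and 1.15% with the centre of the 7438 site inside the other site. Leaving out a replicate gave 2430 to 3298 members, a GR difference from Afos-absent sites of 54.6 to 75.5 points, a GR difference between Dex+E2 and E2 of 88.4 to 98.6 points, an ER difference between Dex+E2 and E2 of 1.56 to 5.61 points, an ER difference between E2 and untreated of 0.823 to 1.18 points, an ER difference from Afos-absent sites of 1.87 to 5.62 points, an ER Dex share of 1.60 to 1.70% and a rank difference of 38.2 to 39.0. With the replicate number as a block, the differences of 90.4, 3.28 and 1.06 points had an exact permutation p of 0.5, the smallest possible. Over members, the replicate differences with Dex+E2 and with E2 correlated at 0.00476 for GR and -0.0286 for ER. Only 3 members differed between the GR E2 lists and 13 between the ER E2 lists. These correlations therefore cannot tell whether same-numbered lists deviate together. Equal list lengths and the middle class of strength were added after seeing the data. Motif searches were not run. Weak sites near the calling limits may be missed by a list, and the depth that sets this is unknown.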
